A study of Mus musculus with 8 samples.

Results

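The CpG island sites away from transcription start sites (TSSs) were the ASH2L binding sites of mouse fibroblasts that were centred more than 1 kb from every annotated TSS and that overlapped a CpG island. Islands were found in the genome sequence as stretches of 200 bp or more in which G and C made up over 50% of bases and the ratio of observed to expected CpG exceeded 0.6, and the TSSs were those of all transcripts of all gene types in GENCODE. These criteria gave 333 sites. They made up 5.18% of the 6428 ASH2L sites on assembled nuclear chromosomes (6444 sites were listed in all) and 8.71% of the base pairs those sites covered. Among the 3051 sites centred beyond 1 kb from every TSS, they were 10.9%.

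The ASH2L sites came from chromatin immunoprecipitation and sequencing (ChIP-seq) of iMEF cells, which are immortalised mouse embryo fibroblasts. All cells carried floxed Ash2l alleles and a Cre-ER recombinase, exon 4 of the endogenous gene had been deleted, and a lentiviral construct supplied human ASH2L with an N-terminal FKBP12F36V tag and HA epitopes, so that the ASH2L precipitates measured the tagged human protein, in clonally derived cells. Libraries of ASH2L precipitates and of inputs were made, in 2 replicates, from untreated cells and from cells given dTAG for 1 h (4 groups in all), a compound that links the tag to a ubiquitin ligase and leads to degradation of the fusion protein. The data analysed were 1 list of sites over all of these samples, with a chromosome, a start and an end for each. No level per sample accompanied a site, so no value below has a replicate error, the read depth behind a site was not shown, and the effect of dTAG on these sites was not analysed here.

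ASH2L is a core subunit of the KMT2 (COMPASS) complexes, which methylate lysine 4 of histone H3. Several subunits of these complexes recognise unmethylated CpG through CXXC domains, and in mammals most CpG islands at promoters lack DNA methylation. Islands that lie away from annotated promoters, often called orphan islands, are known to include unannotated promoters, enhancers and the exons and flanks of developmental genes, the last of which are frequent targets of both Polycomb and Trithorax group proteins.

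The following sequences show the range that the criteria admitted. Each is the central 200 bp of a site on the plus strand of GRCm38 (mm10), written 5′ to 3′, with CpG dinucleotides in capitals. The first is from the widest site, near Hoxd10. The others are from the site with the highest CpG ratio, in an intron of Lncppara with Ppara as the nearest protein-coding gene, from the site in the longest island, in coding sequence of Irf2bpl, and from the site farthest from every TSS, in an intron of Wwox.
Hoxd10, chr2:74689970-74690169: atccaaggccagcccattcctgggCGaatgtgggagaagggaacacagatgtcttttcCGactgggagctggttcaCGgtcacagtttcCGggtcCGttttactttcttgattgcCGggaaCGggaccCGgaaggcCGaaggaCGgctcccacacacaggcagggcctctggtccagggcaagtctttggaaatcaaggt
Ppara, chr15:85671240-85671439: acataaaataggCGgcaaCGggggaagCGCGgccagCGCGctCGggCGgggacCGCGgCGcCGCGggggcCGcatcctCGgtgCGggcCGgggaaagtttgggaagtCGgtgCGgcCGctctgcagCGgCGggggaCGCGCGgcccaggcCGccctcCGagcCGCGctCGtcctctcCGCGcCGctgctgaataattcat
Irf2bpl, chr12:86882437-86882636: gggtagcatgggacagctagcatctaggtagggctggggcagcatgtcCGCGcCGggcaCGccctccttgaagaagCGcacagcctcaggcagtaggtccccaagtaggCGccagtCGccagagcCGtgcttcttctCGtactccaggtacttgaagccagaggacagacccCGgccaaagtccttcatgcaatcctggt
Wwox, chr8:115186752-115186951: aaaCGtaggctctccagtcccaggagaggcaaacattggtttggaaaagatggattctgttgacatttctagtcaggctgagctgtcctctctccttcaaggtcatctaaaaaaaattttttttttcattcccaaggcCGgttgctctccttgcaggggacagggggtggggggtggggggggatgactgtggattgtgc
For comparison, the next sequence is from a site beyond 1 kb of every TSS that overlapped no island and had the median width of its class, in an intron of Aox4.
Aox4, chr1:58192079-58192278: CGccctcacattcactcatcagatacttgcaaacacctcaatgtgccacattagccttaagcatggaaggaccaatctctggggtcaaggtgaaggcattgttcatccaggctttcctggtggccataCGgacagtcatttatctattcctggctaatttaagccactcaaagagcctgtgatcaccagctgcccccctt
The Ppara window held 33 CpG dinucleotides, those of Hoxd10 and Irf2bpl 10 each and those of Wwox and Aox4 2 each.

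The sites were intermediate in base composition between the ASH2L sites at promoter islands and the other distal sites. Median GC content was 51.7% (quartiles 48 and 58.8, n = 333) for the CpG island sites away from TSSs, 67.3% (59.5 and 73.4, n = 3004) for island sites centred within 1 kb of a TSS and 45.3% (41.9 and 48.2, n = 2718) for sites beyond 1 kb without an island. The median observed to expected CpG ratio over the site was 0.583 (0.446 and 0.765), against 0.894 (0.765 and 0.994) at promoter islands and 0.185 (0.0957 and 0.293) at the other distal sites. In CpG dinucleotides per 100 bp the medians were 3.78, 9.95 and 0.941 in the same order. Because the overlap with an island chose the sites, the difference from the non-island sites in CpG content is a property of the choice, whereas promoter island sites were chosen by the same island criteria. Islands beyond 1 kb of every TSS had median GC of 51.5% and a ratio of 0.603 without a site, and 52.0% and 0.628 with one. Islands within 1 kb of a TSS had 56.0% and 0.628 in all, and 62.6% and 0.830 with a site. How far the sites follow this difference between islands was not tested. Only 18 of the 333 sites had a ratio under 0.2 over the whole site, and 17 overlapped islands with less than 10% of their length. At the median site 73.2% of the base pairs lay in an island, and 89 sites (26.7%) lay wholly inside.

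**Figure D1:**
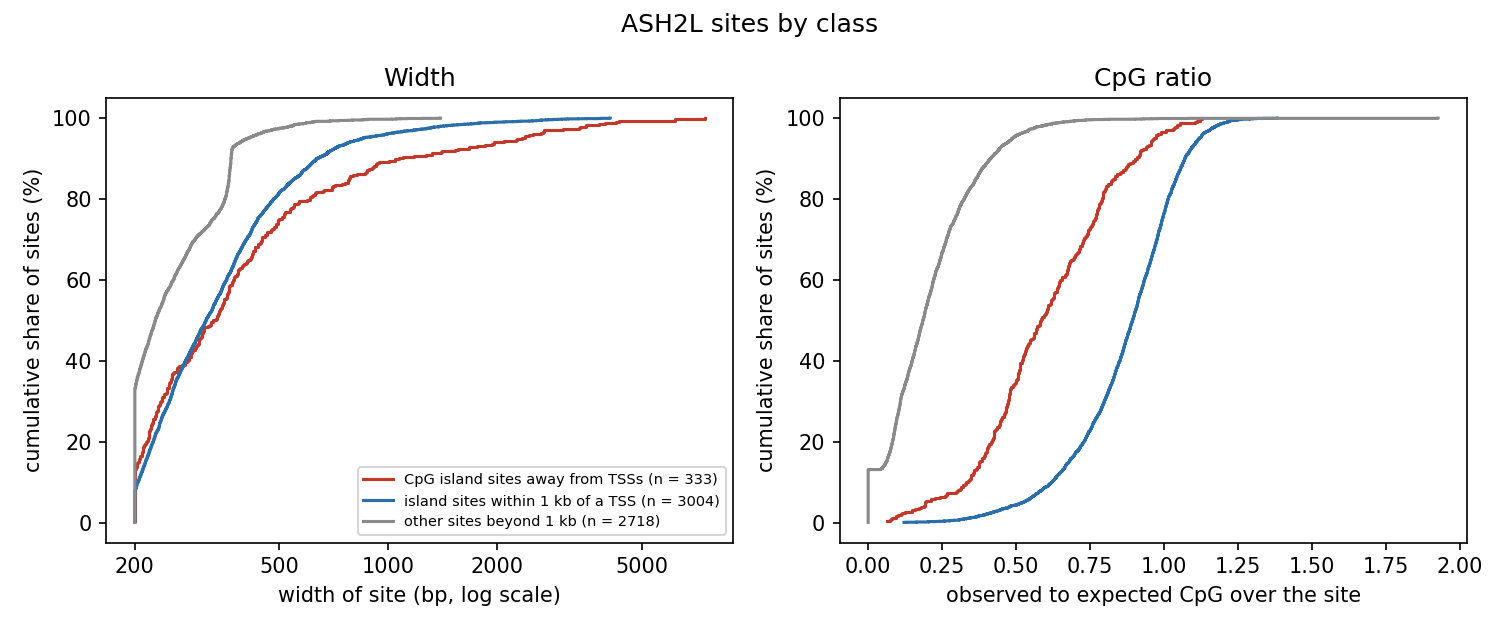
Cumulative share of sites (%) against width (bp, log scale, left) and against the observed to expected CpG ratio over the site (right), for 333 CpG island sites away from TSSs (red), 3004 island sites within 1 kb of a TSS (blue) and 2718 other sites beyond 1 kb (grey). The red curve lies between the other curves in CpG ratio, with medians of 0.583, 0.894 and 0.185, and it reaches furthest to the right in width, up to 7465 bp.

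Most distal CpG islands had no ASH2L site. Of 134937 islands whose nearest edge was more than 1 kb from every TSS, 268 overlapped a site, or 0.199% (95% Wilson interval 0.176 to 0.224), whereas 2835 of 37899 islands within 1 kb of a TSS did, or 7.48% (7.22 to 7.75). The distal share depended on the definition of an island, and was 0.866% (0.674 to 1.11) for 6925 distal islands by stricter criteria (at least 500 bp, GC of 55% and a ratio of 0.65). It was 0.119% (0.102 to 0.139) with the site centre required to lie inside the island. None of these shares was compared by a test, since islands of 1 genome are not replicates, and the intervals here and below cover counting error only. The 333 sites overlapped 360 distinct islands in all, since 33 sites spanned more than 1 island and 17 islands held 2 or more of the sites, and for 95 of the sites (28.5%, 23.9 to 33.6) the island extended to within 1 kb of a TSS although the site was centred farther away. This share was 56.4% with the stricter islands and 14.5% with distance taken from the nearest edge of the site. In 34 cases (10.2%) the same island also carried a site at the promoter.

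The distal islands with a site had a higher median length and fewer repeats than those without. The median length was 325.5 bp (quartiles 235.75 and 538, n = 268), against 271 bp (220 and 366) for the 134669 without a site, and the share with a site rose with length from 0.144% (0.120 to 0.172) of islands of 200 bp to under 300 bp to 0.199% of those under 500 bp, 0.358% of those under 800 bp and 0.995% (0.658 to 1.5) of those under 1200 bp. In the longest class, of 1200 bp and over, 9 of 690 islands had a site (1.30%, 0.688 to 2.46). A longer island has more base pairs that a site can overlap, so the rise is in part tied to length itself. Shares per base pair of island were not taken. Islands within 1 kb of a TSS had a higher share in every length class, from 0.828% to 26.4%. Repeats were common among the unoccupied islands. Of 53340 distal islands with at least 50% of their base pairs in repeats, 12 had a site (0.0225%, 0.0129 to 0.0393), compared with 256 of 81597 (0.314%, 0.278 to 0.355) with less. Reads from repeats can be hard to place uniquely, and the part of mappability in this difference was not tested. With the repeat-rich islands left out, the share still rose with length, from 0.205% in the shortest class to 2.51% at 800 bp to under 1200 bp and 2.97% at 1200 bp and over.

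**Figure D2:**
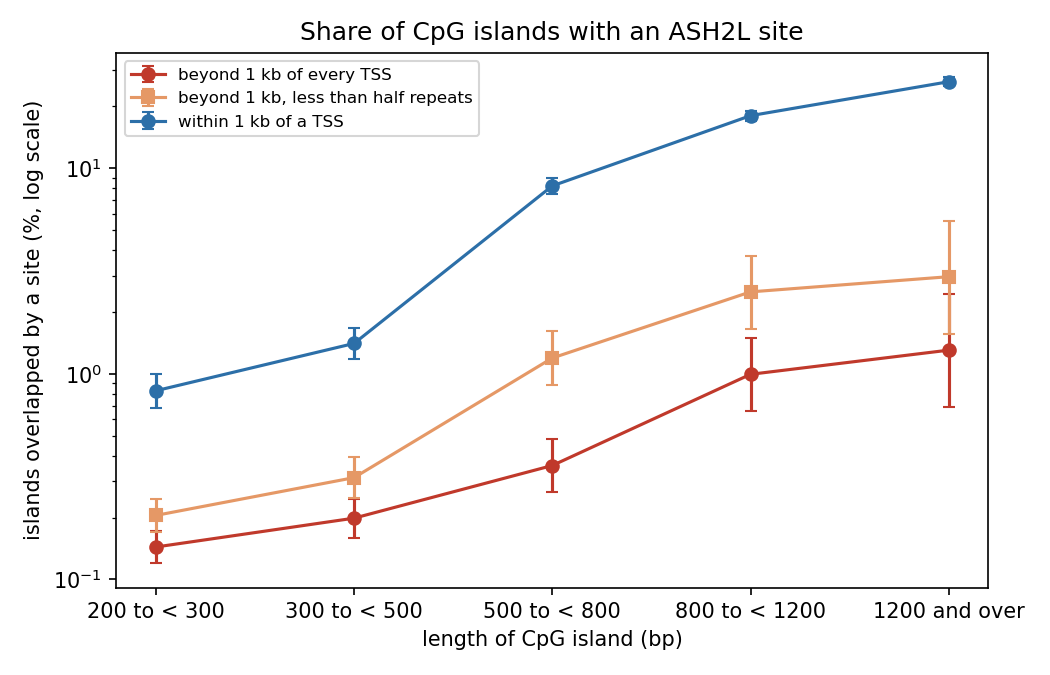
Share of CpG islands overlapped by an ASH2L site (%, log scale) against island length (bp) for islands more than 1 kb from every TSS (red), those of them with less than 50% repeats (orange) and islands within 1 kb of a TSS (blue), with 95% Wilson intervals that cover counting error. All lines rise with length, from 0.144% to 1.30% for all distal islands and from 0.828% to 26.4% near TSSs. Longer islands have more base pairs that a site can overlap.

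The same shares were taken by the CpG ratio of the island. The share with a site was 0.141% (0.115 to 0.173) below a ratio of 0.6 over the whole island, 0.227% (0.193 to 0.267) from 0.6 to 0.8 and 0.547% (0.386 to 0.776) from 0.8 to 1, but only 1 of the 1083 distal islands with a ratio of 1 or more had a site (0.0923%, 0.0163 to 0.521). Near TSSs the corresponding shares rose throughout, to 28.0% and 38.8% (33.6 to 44.2) in the upper classes. The classes also differed in median island length, at 278, 252, 406 and 285 bp for distal islands from the lowest ratio up. Near TSSs the median lengths were 300, 476, 1089 and 922 bp. The parts of length and ratio were not separated. Many of the islands the sites fell in were weak by common standards. With the stricter criteria, 142 of the 333 sites (42.6%, 37.4 to 48.0) overlapped an island.

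The 25 sites centred 1006 to 1095 bp from the nearest TSS, just inside the criterion, had a median width of 382 bp, and the 28 island sites centred 901 to 997 bp away, just outside, one of 364 bp. Distances ranged up to 133939 bp with a median of 3188 bp (quartiles 1417 and 9010), and the sites lay closer to TSSs than the other distal sites, whose median was 12370 bp. Between 1 and 3 kb from a TSS there were 161 sites (48.3%, 43.0 to 53.7), between 3 and 10 kb 93 (27.9%), between 10 and 100 kb 77 (23.1%) and beyond 100 kb 2. Farther than 10 kb from every TSS lay 23.7% (19.5 to 28.6) of them, against 55.9% (54.0 to 57.8) of the distal sites without an island and 58.2% of all distal islands. With the TSSs of protein-coding genes alone this share of the sites was 40.3%, and with the stricter islands 12.1%. Distal islands, here and below, were chosen by their nearest edge, and the 58.2% used that edge, whereas sites were taken by their centre. Islands that extended to within 1 kb of a TSS, as at 95 of the sites, are therefore not among the distal islands. Sites downstream of the nearest TSS, in the direction of transcription, numbered 219 (65.8%, 60.5 to 70.7). The share was 67.9% (66.3 to 69.6) for promoter island sites and 54.7% (52.8 to 56.6) for distal sites without an island.

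**Figure D3:**
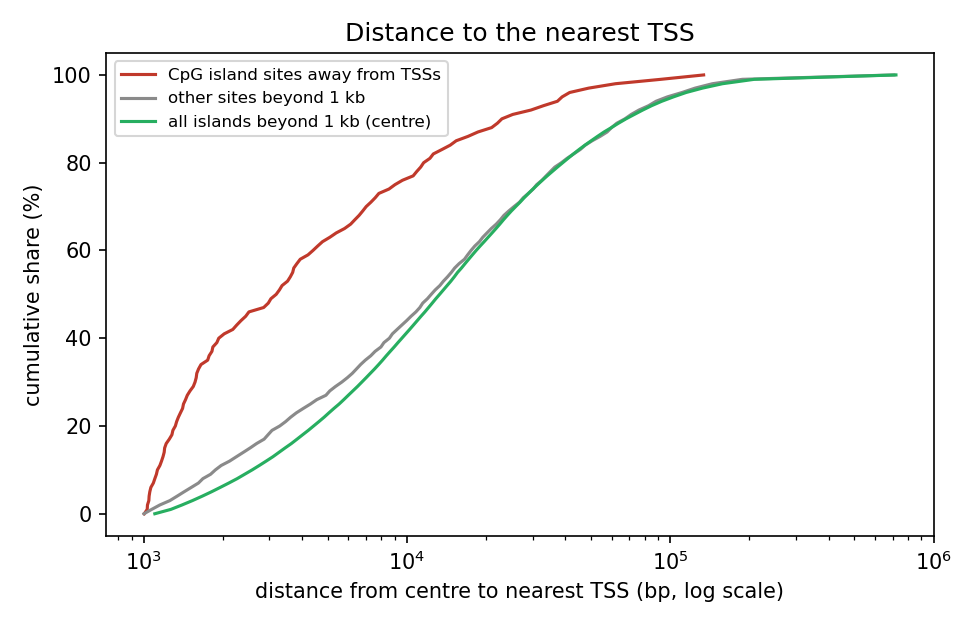
Cumulative share (%) against the distance from the centre to the nearest annotated TSS (bp, log scale) for the 333 CpG island sites away from TSSs (red), the 2718 other sites beyond 1 kb (grey) and the centres of all 134937 islands beyond 1 kb (green). The red curve lies to the left of both others, with a median of 3188 bp against 12370 bp for the other sites.

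The nearest TSS belonged to a protein-coding gene for 237 sites (71.2%, 66.1 to 75.8), to a lincRNA for 25, to a processed pseudogene for 19 and to an antisense transcript for 13. At distal sites without an island it was protein-coding in 51.7%. By position, 160 sites were centred in introns (48.0%, 42.7 to 53.4), 103 between genes (30.9%), 40 in coding sequence (12%, 8.95 to 15.9), 17 in exons of noncoding transcripts and 13 in untranslated regions. Coding sequence held 1.66% of the distal sites without an island and 10.3% of all distal islands, and among the sites the share was 5.81% beyond 3 kb from a TSS and 7.55% with sites within 1 kb of each other merged. The 40 sites in coding sequence were centred at a median of 1579 bp from a TSS with a median width of 403 bp, and the island of 18 of them extended to within 1 kb of a TSS. They included sites in Foxc1, Foxc2 and Irf2bpl, and in Fzd7, the gene of a Wnt receptor. The 213 sites inside protein-coding genes lay at a median of 19.8% of the length of the gene from its start (quartiles 4.00 and 53.4, highest 99.75).

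A second annotation placed TSSs near some of the sites. Within 1 kb of a TSS in RefSeq were centred 60 of them (18%, 14.3 to 22.5), against 2.43% of the distal sites without an island. Curated RefSeq transcripts accounted for 17 of the 60. The RefSeq TSSs were those of all types of transcript, curated or not, and the type near each site was not examined. Of the 60, 10 were farther than 10 kb from any GENCODE TSS. The 4 sites nearest to Trim27, which encodes a ubiquitin ligase, were of this kind. They lay 10108, 10761, 32816 and 43979 bp downstream of its TSS, outside any GENCODE gene, and 235, 418, 91 and 205 bp from a RefSeq TSS. The site farthest from every GENCODE TSS was 209 bp wide, at chr8:115186748-115186956 in an intron of Wwox, an oxidoreductase gene, 133939 bp from the TSS of a small RNA gene, and it was 225586 bp from any RefSeq TSS. The next was 217 bp wide, 129549 bp from a TSS and between genes near Map2k4 (chr11:65495239-65495455). Of the next 3, 2 lay 99723 and 97929 bp from Mir148a (chr6:51170061-51170313 and chr6:51171722-51172239) in islands with CpG ratios of 0.799 and 0.942, 3741 and 5535 bp from a RefSeq TSS, and the last lay 79657 bp upstream of Map4k3 (chr17:80808042-80808241) and 1292 bp from a RefSeq TSS.

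The sites with the highest CpG ratio over their own length lay at a range of distances from TSSs. After the site in Lncppara (ratio 1.13, chr15:85671185-85671495, 17724 bp from a TSS, in an island of 2071 bp) came an intronic site of Fnbp1l (1.12, 1019 bp from its TSS), a site between genes whose nearest protein-coding gene was Ptma (1.11, 13866 bp from the TSS of a pseudogene, in an island of 1109 bp), an intronic site of Qk, which encodes an RNA-binding protein (1.10, 1120 bp), and a site 6475 bp downstream of the TSS of the olfactory receptor gene Olfr750 (1.05). The last of these was 82 bp from a RefSeq TSS. The longest islands were those at Irf2bpl (3574 bp, with a site of 873 bp), at Fzd7 (3393 bp, with sites 1052 bp upstream and 1825 bp downstream of the TSS), at Foxc1 (3184 bp) and at Hmga2, a chromatin protein gene (3117 bp, with a site of 2437 bp), all of which extended to within 1 kb of a TSS.

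The sites ranged widely in width. Their median width was 329 bp (quartiles 225 and 498), against 314 bp (236 and 436) for promoter island sites and 228 bp (200 and 327.75) for distal sites without an island. At the lowest width in the list, 200 bp, were 44 of them (13.2%, 9.99 to 17.3), 7.99% (7.07 to 9.01) of promoter island sites and 33.3% of distal sites without an island. Wider than 1 kb were 36 of them (10.8%, 7.91 to 14.6), 3.79% (3.17 to 4.54) of promoter island sites and 0.258% (0.125 to 0.531) of distal sites without an island. A wide site overlaps an island more readily than a narrow one, so width is in part tied to the choice of sites, and with the site centre required to lie in the island the median was 308.5 bp. Of these 36 sites, 34 had another ASH2L site within 5 kb. Over all 333, another site lay within 5 kb in 178 cases (53.5%, 48.1 to 58.7), compared with 14.5% (13.2 to 15.9) of the distal sites without an island, which lay farther from TSSs, and the nearest was a promoter site in 73 and another CpG island site away from TSSs in 60. Joined over gaps of up to 5 kb, the 333 sites formed 275 separate loci. The nearest protein-coding gene had a promoter site of its own for 170 sites (51.1%), against 28.1% of distal sites without an island.

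The widest sites were at genes of developmental transcription factors. The widest of all covered 7465 bp at chr2:74686338-74693802, centred 1854 bp upstream of Hoxd10 in the HoxD cluster, which patterns the limb and trunk, and 41.4% of it lay in islands. It was followed by an intronic site of 6166 bp in Ebf3 (chr7:137308336-137314501), a gene of the early B cell factor family, and by sites of 4250 and 3369 bp in introns of Mecom, a zinc finger gene of the PRDM family (chr3:30505441-30509690 and chr3:30512158-30515526). Tbx15, a T-box gene of skeletal and skin development, had a site of 3963 bp (chr3:99253598-99257560). The others among the widest were at Hoxa7 (3809 bp, chr6:52221603-52225411), Skida1 (3514 bp, chr2:18045633-18049146), Hoxa11 (3356 bp, chr6:52251439-52254794) and Foxc1 (3026 bp, chr13:31806318-31809343). Of the 10 widest sites, 9 had a gene of the list below as their nearest protein-coding gene, the exception being Skida1. Such broad sites reached close to TSSs, and 7 of the 10 contained a TSS although their centres were farther than 1 kb from it. Over all 333 sites, 12 contained a TSS, 57 had an edge within 1 kb of one and 276 lay wholly beyond.

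A list of 370 genes of developmental transcription factors, which was chosen with earlier results of these data known, was nearest to 71 of the 333 sites (21.3%, 17.3 to 26.0). Genes entered the list by family, from the start of their symbol and not by a known role. Klf6 and Foxk1 are thus in it, while Nr2f2 and Trps1, also nearest to sites, are not. The list made up 1.69% of 21938 protein-coding genes, and it was nearest to 4.33% of all distal islands, 4.06% (3.41 to 4.83) of promoter island sites and 5.26% (4.48 to 6.17) of distal sites without an island. Counted by gene instead of by site, 41 of the 261 genes nearest to a site were listed (15.7%, 11.8 to 20.6), as were 2.03% of the genes nearest to a distal island. Of the 5845 distal islands whose nearest gene was listed, 70 had an ASH2L site (1.20%, 0.949 to 1.51), and of the 126350 whose nearest gene was in no list, 191 did (0.151%, 0.131 to 0.174), with median island lengths of 276 and 270 bp. Repeat content was not matched between these islands. The share of listed genes was 66.7% (24 of 36) for sites wider than 1 kb and 15.8% (47 of 297) for the narrower ones, and the median width was 540 bp at listed genes and 296 bp elsewhere. The list is not independent evidence of this pattern, for which no test was made.

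By family, homeobox genes were nearest to 32 of the 71 sites, T-box genes to 10, forkhead genes to 7, basic helix-loop-helix genes to 6, Nfi genes to 5, Prdm and Mecom to 5 and Sox genes to 3, all at Sox11, while Ebf3, Klf6 and Gli2 had 1 each. Within the homeobox genes, 17 sites were at the HoxA and HoxD clusters, with 8 nearest to Hoxa genes (Hoxa2, Hoxa3, Hoxa5, Hoxa7, Hoxa11 and Hoxa13), 6 nearest to Hoxd genes (Hoxd10 to Hoxd13) and 3 nearest to Evx2 beside Hoxd13. None was nearest to a Hoxb or a Hoxc gene. The 9 sites of the HoxD cluster and Evx2 spanned chr2:74655673-74694426, and besides the widest they measured 297 to 1524 bp. The 8 sites of the HoxA cluster were 223 to 3809 bp wide. Among the other families there were 3 sites at Foxc1 (3026, 2087 and 540 bp) and 2 at Foxc2 (2512 and 263 bp), forkhead genes of mesoderm development, 2 at Tbx4 (1181 and 301 bp), which acts in hindlimb formation, and 2 at Twist1 (700 and 490 bp, centred 5071 and 5826 bp from its TSS), a regulator of mesenchymal cells. Outside the Hox clusters, homeobox genes with wide sites were Zfhx3 (1845 bp in an intron, 1389 bp from its TSS, CpG ratio 0.958), Prrx1, a gene of limb mesenchyme (1756 bp in an intron, 1583 bp), and Pax9, a gene of tooth and pharyngeal pouch development (1556 bp in coding sequence, 4384 bp, and 301 bp in an intron, 1889 bp). Pitx1, which acts in the hindlimb, had an intronic site of 885 bp, Zfhx4 one of 902 bp and Dlx2 a site of 356 bp in coding sequence, whereas the sites nearest to Hlx, Shox2, Pbx3 and Emx2 were 200, 200, 219 and 373 bp wide. The other listed genes had sites of 343 bp at Twist2, 474 bp at Id2, 423 bp at Tcf12, 869 bp at Bhlhe22, 546 bp at Foxn2, 363 bp at Foxk1, 306 bp at Tbx3, 344 bp at Prdm1, 261 bp at Klf6 and 219 bp at Gli2. Some of these genes were nearest only at a great distance, since the Gli2 site lay 156883 bp and the Emx2 site 79409 bp from the TSS of the gene. The 3 sites at Sox11 measured 234, 905 and 219 bp, the first and second of them in its untranslated region.

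Several genes held series of sites. Of the 261 nearest genes, 217 had 1 site and 44 had 2 or more. Tbx15 had the most, with 7 sites of 200 to 3963 bp over 29722 bp, all in introns, the first of them in the neighbouring gene Wars2, and 16 islands lay in the region drawn in the map of the locus, with 3 annotated TSSs, 2 promoter sites and 3 distal sites without an island. Tnrc18, a gene with a bromo-adjacent homology domain, had 6 intronic sites of 209 to 784 bp over 6048 bp downstream of its TSS, the nearest of them 1008 bp away, in a run of neighbouring islands. Nfix, of the nuclear factor I family, had 5 sites of 225 to 1671 bp over 13773 bp, of which 1 was in coding sequence and the rest in introns, and 3 lay 6081, 8769 and 10210 bp upstream of the nearest Nfix TSS. Mecom had 4, 2 of them among the widest, and 1 of 200 bp that was centred 184774 bp from a Mecom TSS, outside the gene, and is counted there only because Mecom was the nearest protein-coding gene. At Bahcc1, a chromatin reader gene chosen for the map after its values were seen, 4 sites were 447, 1961, 209 and 436 bp wide. The site of 209 bp overlapped its island by 1 bp, as did 1 other site, of 200 bp, upstream of Tbx15.

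**Figure D4:**
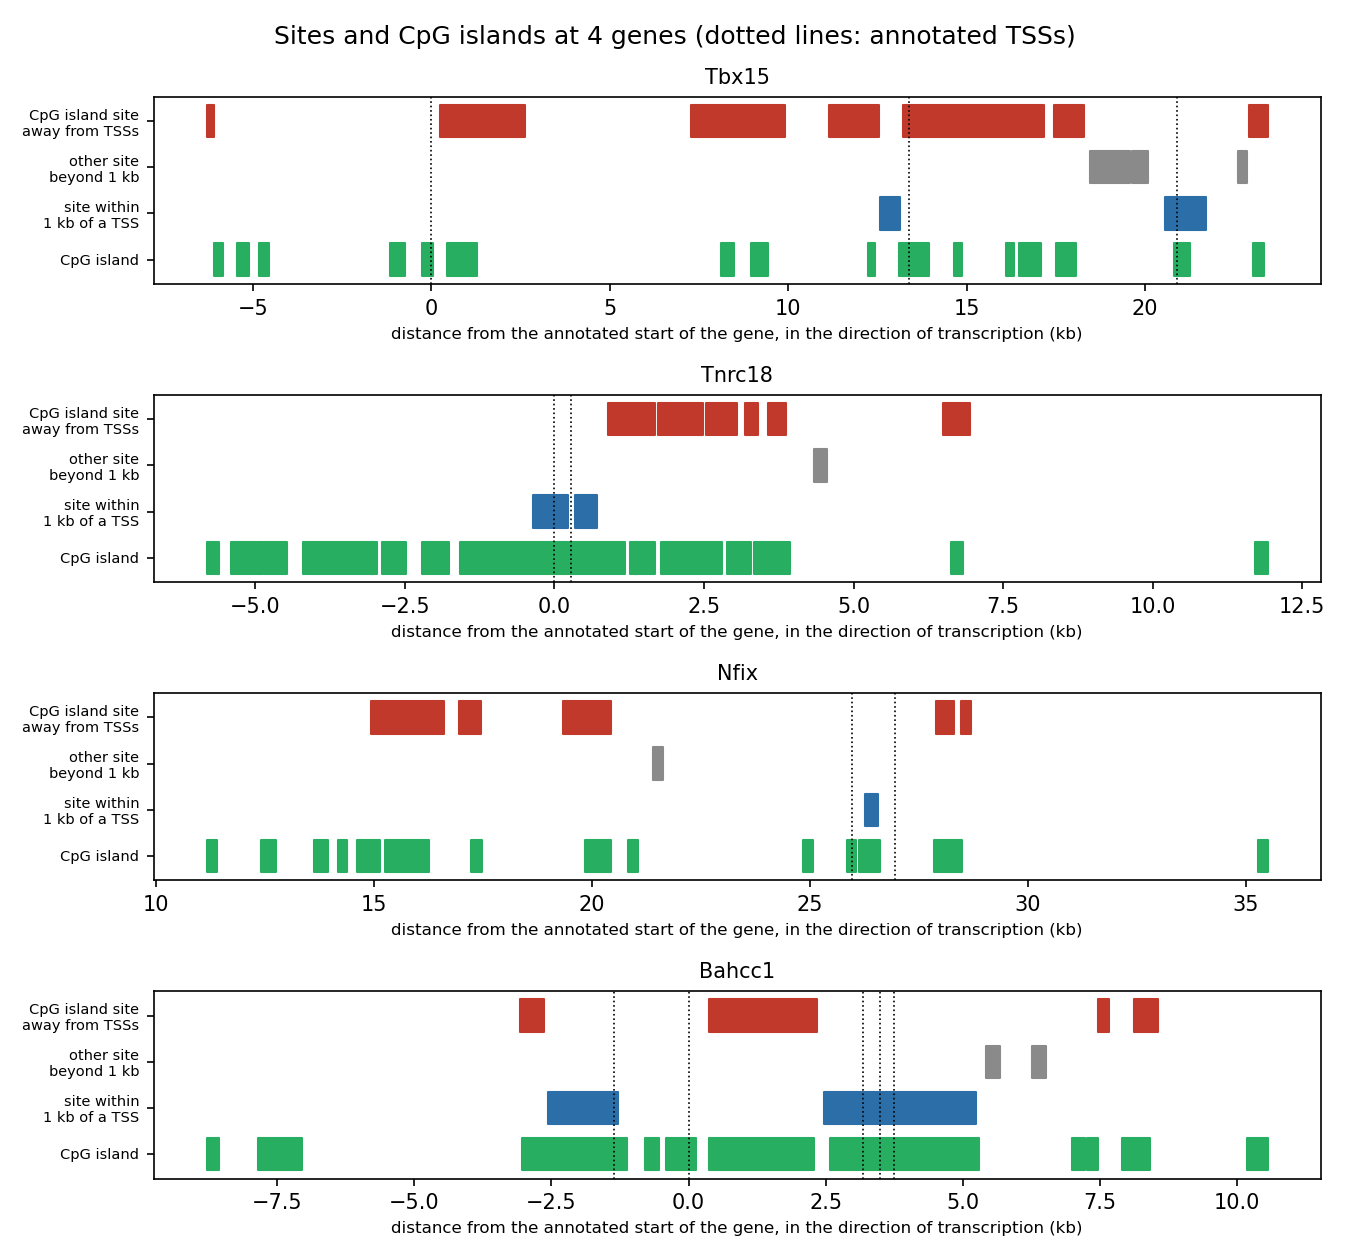
Maps of 4 genes with several CpG island sites away from TSSs, in kb from the annotated start of the gene in the direction of transcription, with the sites away from TSSs that overlap an island in red, other sites beyond 1 kb in grey, sites within 1 kb of a TSS in blue, CpG islands in green and annotated TSSs as dotted lines. Tbx15 shows 7 red sites, Tnrc18 6, Nfix 5 and Bahcc1 4, most of them next to another site.

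Genes of signalling pathways were nearest to 10 sites (3.0%, 1.64 to 5.44), against 0.883% (0.594 to 1.31) of distal sites without an island and 0.834% of distal islands. Besides the 3 at Fzd7 (241, 286 and 420 bp), these were 1 each at Bmpr2, a BMP receptor (290 bp), Smad6 and Smad7, inhibitory SMADs (251 and 661 bp), Tgfbr3, a TGF-beta co-receptor (214 bp), Fgfr2, an FGF receptor (306 bp), Rspo2, a secreted Wnt enhancer (382 bp), and Wnt16 (202 bp). A ribosomal protein gene was nearest to 1 site (0.300%, 0.0530 to 1.68), against 2.20% of promoter island sites, 0.147% of distal sites without an island and 0.257% of distal islands. A protocadherin gene was likewise nearest to 1, against 0.20%, 0.110% and 0.493% in the same order. Genes of collagens and laminins, which fibroblasts express, were nearest to 0 of the 333 sites, which allows a share of up to 0.901%, and to 0.368% (0.20 to 0.676) of distal sites without an island.

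The sites nearer to TSSs were set against those farther away. Of the 161 sites at 1 to 3 kb, 62.7% (55 to 69.8) overlapped an island by the stricter criteria, and of the 172 beyond 3 kb 23.8% (18.1 to 30.7) did. Median island length was 718 bp (quartiles 351 and 1846) at 1 to 3 kb and 316 bp (235.75 and 550.25) beyond, and median site width 373 and 289.5 bp. Another ASH2L site lay within 5 kb of 72.7% (65.3 to 79.0) of the nearer and 35.5% (28.7 to 42.9) of the farther sites. The island extended to within 1 kb of a TSS for 59.0% of the nearer sites and for none of the 172 farther ones, which allows up to 1.74%. Listed transcription factor genes were nearest to 27.3% (21.0 to 34.7) and 15.7% (11 to 21.9), and a RefSeq TSS lay within 1 kb of 26.7% and 9.88%. Islands with at least 50% repeats were overlapped by 11 of the sites, all beyond 3 kb.

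Short consensus motifs were counted on both strands in the central 200 bp of each site. The motif most often present was CCGCCC, the core of the GC box bound by SP and KLF factors, in 69 of the 333 sites (20.7%, 16.7 to 25.4), against 50.4% of promoter island sites, 2.43% of distal sites without an island and 12.3% of the 134669 distal islands without a site. The AP-1 motif (TGACTCA or TGAGTCA), bound by Fos and Jun proteins, was present in 25 sites (7.51%, 5.14 to 10.8), against 1.40%, 11% (9.84 to 12.2) and 2.36% in the same order. Over the whole site instead of its centre it was present in 12.6% (9.47 to 16.6), and among the 149 sites beyond 1 kb from a TSS that the stricter island criteria chose in place of the others it was present in 2.01% (0.687 to 5.75). The E-box CACGTG was present in 10 (3.0%, 1.64 to 5.44), against 3.46%, 2.10% and 7.82%. Of all distal islands 39.5% had at least 50% repeats, against 3.30% of the islands at the sites. Motif shares of distal islands without these repeat-rich islands were not taken, and the part of repeats in the differences was not tested. Sites with these motifs are shown for reference, as the central 200 bp on the plus strand of GRCm38 with the motif, in the orientation found, in capitals.
Cdc25a, GC box, chr9:109899385-109899584: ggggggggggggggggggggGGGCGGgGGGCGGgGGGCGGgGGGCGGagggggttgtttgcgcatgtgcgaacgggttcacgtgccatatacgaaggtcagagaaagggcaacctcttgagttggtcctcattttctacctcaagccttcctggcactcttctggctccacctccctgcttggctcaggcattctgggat
Klf6, AP-1, chr13:5845177-5845376: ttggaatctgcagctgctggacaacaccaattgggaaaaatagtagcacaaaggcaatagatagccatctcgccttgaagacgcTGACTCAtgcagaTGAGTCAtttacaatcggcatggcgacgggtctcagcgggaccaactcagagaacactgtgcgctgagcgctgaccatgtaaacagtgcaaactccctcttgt
Gm43517, E-box, chr12:49394904-49395103: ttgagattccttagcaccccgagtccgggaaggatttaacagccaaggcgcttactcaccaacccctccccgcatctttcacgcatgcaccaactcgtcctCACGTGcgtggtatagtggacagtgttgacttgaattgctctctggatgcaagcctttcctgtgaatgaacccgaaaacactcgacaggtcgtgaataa
The Cdc25a window was between genes 9842 bp from a TSS and held the GC box motif on the minus strand, and the Klf6 window, between genes 12284 bp from a TSS, was 1 of 3 sites with 2 or more AP-1 matches. Matches are a description of sequence and not evidence of binding.

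The sites with an AP-1 motif lay mostly beyond 3 kb from a TSS. Of the sites beyond 3 kb 21 of 172 held it (12.2%, 8.13 to 17.9), and of those at 1 to 3 kb 4 of 161 (2.48%, 0.970 to 6.21). Their median distance from a TSS was 9010 bp and their median width 238 bp, 12 were in introns and 11 between genes, and 3 lay in an island of 500 bp or more. Among their nearest genes were Lgr5, Wif1, Klf6, Pdgfa, Tgfbr3 and Trps1, at which the site was 352, 200, 261, 398, 214 and 703 bp wide. Of the other motifs, ETS (CCGGAAGT) was in 0.601% of the sites, against 5.96% of promoter island sites, 0.221% of distal sites without an island and 0.552% of distal islands without a site. EGR (GCGGGGGCG or GCGTGGGCG) was in 1.80%, against 3.63%, 0.0368% and 0.495% in the same order, NFY (CCAATCAG, CCAATCGG, CCAATGAG or CCAATGGG) in 0.901%, against 1.03%, 2.02% and 5.53%, and CTCF in 0.901%, against 0.233%, 0.0736% and 0.209%. CRE (TGACGTCA), NRF1 and YY1 were in 0 of the 333 sites, which allows up to 0.901% for each. They were in 0.965%, 0.533% and 1.30% of promoter island sites and 1.84%, 0.270% and 0.0282% of distal islands without a site. In distal sites without an island CRE was in 0.110%, NRF1 in 0 (which allows up to 0.110%) and YY1 in 0.0368%.

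**Figure D5:**
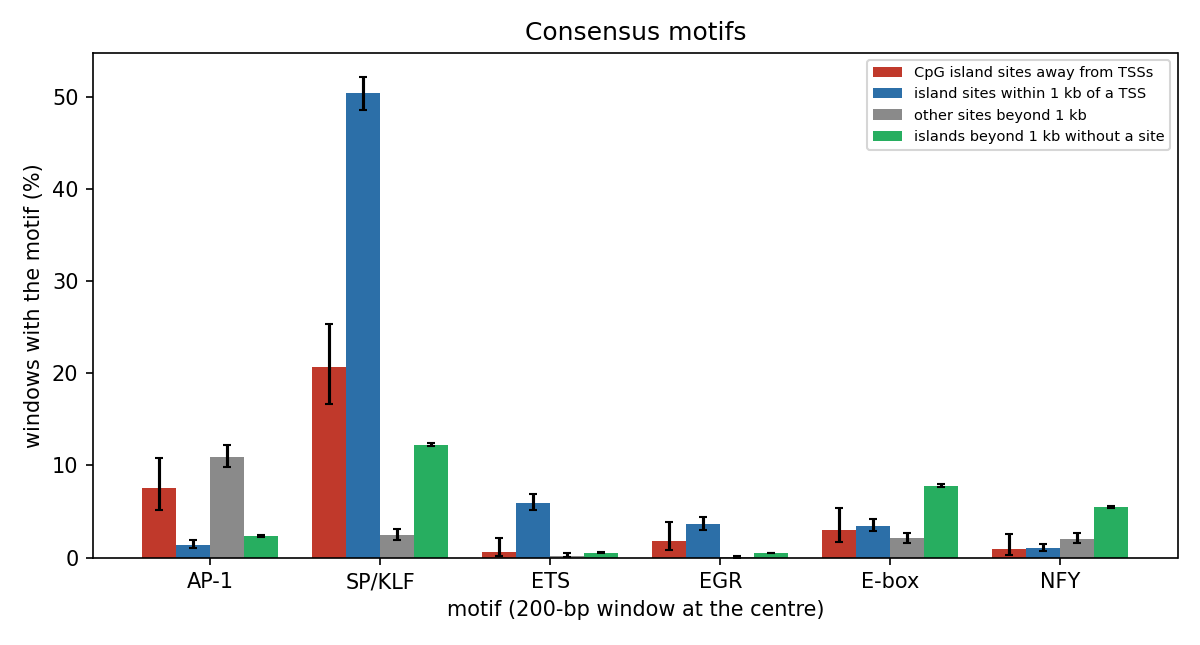
Share of 200-bp windows with each motif (%) in CpG island sites away from TSSs (red), island sites within 1 kb of a TSS (blue), other sites beyond 1 kb (grey) and islands beyond 1 kb without a site (green), with 95% Wilson intervals that cover counting error. The GC box motif (SP/KLF) reaches 20.7% in red and 50.4% in blue, and AP-1 7.51% in red and 11% in grey.

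The sites were spread over the autosomes, with 1 on the sex chromosomes. Chromosome 3 held the most, with 34, and 0.459% (0.324 to 0.651) of its distal islands had a site, followed by chromosome 2 with 28 and chromosome 13 with 27 (0.427%, 0.294 to 0.620, of its distal islands). Chromosome X had 1, an intronic site of 248 bp in Usp9x, 1504 bp from its TSS in an island of 2451 bp that extended to within 1 kb of a TSS. None of the 4703 distal islands of chromosome X had a site, which allows a share of up to 0.0638%. Chromosome Y had no CpG island site away from TSSs. Chromosome 15, which held the most distal sites without an island (274, or 10.1% of them), had 12 of the 333.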

How the data were processed

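ASH2L ChIP-seq was analysed from a list of sites compiled by the authors over all samples, whose deposited values are genomic positions (chromosome, start and end) without read counts, peak scores or p-values. Per the labels, the submitters' processing notes name BWA, SAMtools, MACS2, deepTools and DESeq2 with the build mm10, and the study's methods add Trim Galore for trimming, Picard for merging replicates and narrow peak calling for ASH2L. Whether the listed sites were called on the merged replicates or per sample is not said there. Because the list holds no column per sample, replicates could not be compared, depth was not shown, the signal of a site was unknown and the comparison with and without dTAG was not analysed here. The number of unused columns of single samples was 0.

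Starts were read as counted from 0, since the smallest difference between end and start was then 200 bp, and positions are printed counted from 1. Sequence was read from GRCm38, and 132629 distinct TSSs came from GENCODE mouse release M21, an earlier release than the authors used. Sites were represented by their centres. Islands were the union of 200-bp windows, moved by 1 bp, that each passed the criteria, which gave 172836 islands, and the whole union can have a lower ratio than its windows. The UCSC table of islands named in the study's methods was not used here. Repeats were the soft-masked bases of the RefSeq sequence. Positions were assigned in the order coding sequence, untranslated region, noncoding exon, intron and intergenic, with all gene types. The nearest gene was that of the nearest protein-coding TSS. Motifs were matched as exact consensus letters on both strands.

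The 333 sites were compared with other classes of sites and with islands by counts, medians and 95% Wilson intervals, with no tests, since sites are not replicates and can share an island. For a count of 0 the limit given is 3 divided by the total. Sites were named by a rule: the 10 widest, the 5 farthest, the 5 of highest CpG ratio, the 5 in the longest islands, the sites of the 5 genes with the most, and those at listed genes, with sequences for the extremes and for the 3 motifs that most sites hold. The sites at Lgr5, Wif1, Pdgfa, Trps1, Usp9x, Trim27 and Bahcc1 were named after their values were seen. Members and gene lists were chosen with earlier results of these data known. One of the widest sites, with its gene, and one sequence are not reported here. Alternatives changed the TSS distance, the TSS set, the island criteria, the overlap, repeats, merging, the edge used for distance and the motif window, and one with RefSeq TSSs was added after seeing the data. The functions were tested on simulated data. Tables were made in Python 3.11.15 with pandas 2.3.3, NumPy 2.4.6 and SciPy 1.17.1, and plots with matplotlib 3.10.9.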

Additional observations from a re-analysis of the deposited data

Results flagged for a closer look

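Outside the comparisons, 16 of the 6444 listed sites lay on sequences other than the assembled nuclear chromosomes. They could not be set against TSSs or islands in the same way and are included in no class above.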

How the results depend on the processing

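No paired analysis was possible because the list has no column per sample, and for the same reason replicates could not be left out in turn. Of 74 alternative values over 9 results, 47 stayed within the reported value's limits and 27 moved. The limits were the 95% Wilson interval for a share, the 95% binomial interval of order statistics for the median width and 1.5 times for the number of sites. Where they moved, the cause was not tested beyond the change in which sites or islands were counted. Beyond 3 kb instead of 1 kb there were 172 sites, the share of distal islands with a site was 0.148%, the median width 289.5 bp, and the shares were 45.9% farther than 10 kb, 41.9% in introns, 5.81% in coding sequence, 15.7% nearest to a listed transcription factor gene, 0 with an island extending to within 1 kb and 12.2% with AP-1. With the stricter islands there were 149 sites, 0.866% of islands with a site, a median width of 382 bp, and shares of 12.1% farther than 10 kb, 54.4% in introns, 56.4% with an island extending to within 1 kb and 2.01% with AP-1. With protein-coding TSSs alone, 0.251% of islands had a site, 40.3% of sites were farther than 10 kb and 21.8% had an island extending to within 1 kb. Merging sites within 1 kb gave a median width of 358 bp, 7.55% in coding sequence and 16.2% at listed genes. The share of distal islands with a site was 0.119% with the site centre inside the island, 0.314% without repeat-rich islands and 0.173% with RefSeq TSSs added, the last chosen after seeing the data. Measured from the nearest edge of the site, 14.5% had an island extending to within 1 kb. In the whole site instead of its centre, AP-1 was in 12.6%. The list does not show depth or peak height, so weak and strong sites count alike.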
